A study of Mus musculus with 16 samples.

Results

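The MAX network was followed through 9 genes of 56691 in single light zone (LZ) germinal center (GC) B cells of the mouse: *Myc*, *Max*, *Mxi1*, *Mxd3*, *Mxd4*, *Mnt*, *Mga*, *Mlx* and *Tfap4*. They were picked out by gene symbol and not by a cut on a measured value, and each symbol matched 1 gene. Earlier results of these data were known when the genes were chosen. The cells came from popliteal lymph nodes of male C57BL/6J or B6.SJL hosts, 6 to 8 weeks old at priming, that were primed with ovalbumin, received B cells and were boosted with NP-OVA. The transferred cells carried B1-8hi, a knock-in heavy chain with high affinity for the hapten NP, and were either BTKC481S, a point mutant of the kinase BTK that the inhibitor does not block, or BTKWT. Hosts were given acalabrutinib, a BTK inhibitor, or vehicle by mouth at the start, at 6 hours and at 12 hours, and cells were sorted at 14 hours. The deposited matrix held 637 cells of 5 acalabrutinib hosts (381 cells) and 3 vehicle hosts (256 cells). Cell names gave the host, the plate and the well but not the genotype, so that both genotypes of a host were pooled and the host was the replicate. The hosts came from 2 independent experiments, and which host belonged to which was not stated in the sources used here, so that an effect of the experiment was not tested.

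MYC is a transcription factor that binds DNA only when paired with MAX, and that MYC-MAX pair favours genes for ribosome building, metabolism and entry into the cell cycle. MAX also pairs with MXI1, MXD3, MXD4, MNT and MGA, and these pairs bind the same E-box sequence and mostly repress, the MXD proteins and MNT through the SIN3 corepressor and MGA as part of a Polycomb-type complex. MLX is a MAX-like partner of MNT, of some MXD proteins and of the glucose-responsive MLXIP and MLXIPL, and AP4, the product of *Tfap4*, is a separate E-box factor whose gene is a known target of MYC. In GCs, MYC is known to be switched on in a minority of LZ cells that received T cell help.

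The E-box letters CACGTG, which read the same on both strands, are shown in capitals because they are the site that MAX pairs recognize. Promoters of 7 of the 9 genes (all but *Myc* and *Tfap4*) were read from the RefSeq table of build GRCm38.p6, around each gene start. The table holds 32851 promoters of 27025 genes. Members are counted here as genes and the background as promoters, so that their shares are not in the same unit. The E-box was found in 4 of the 7 genes and in 7.15% of all 32851 promoters of the table. The E2F-type letters TTCCCGC, read on both strands, were found in 1 of the 7 genes and in 4.60% of all promoters. The windows that hold them are printed 5′ to 3′ on the strand of the gene, with the motif in capitals. They lie at chr12:76962246-76962281 (*Max*, minus strand), chr11:101087220-101087285 (*Mlx*, plus strand), chr11:74830771-74830836 (*Mnt*, plus strand), chr5:34187894-34187959 (*Mxd4*, minus strand) and chr13:55329832-55329897 (*Mxd3*, minus strand, the only one with the E2F-type letters, read here as their reverse complement GCGGGAA). A match describes the letters of the window and nothing about binding.
Max: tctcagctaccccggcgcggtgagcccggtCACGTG
Mlx: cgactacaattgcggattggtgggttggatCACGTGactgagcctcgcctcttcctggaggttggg
Mnt: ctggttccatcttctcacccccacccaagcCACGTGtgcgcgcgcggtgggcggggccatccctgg
Mxd4: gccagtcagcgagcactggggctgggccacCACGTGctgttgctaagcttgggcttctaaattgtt
Mxd3: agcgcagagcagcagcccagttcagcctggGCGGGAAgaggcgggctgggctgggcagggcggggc

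Hosts held 45 to 130 cells on 1 to 3 plates each, and cells held 132412 to 1825420 counts, with a median of 789357. The counts carry no molecular identifiers. The binomial intervals printed below treat the cells of all hosts as independent. They cover counting error only and leave out the spread between hosts, so that they are too narrow for a statement about hosts. Of the marker lists, all of 8 B cell genes but *Ms4a1*, which was at 0 in every cell, were found in over 50% of cells, and 6 of 8 GC genes were. The 8 T cell genes summed to 0.105 to 37.2 counts-per-million (CPM) per host, with shares from 0.157% of cells for *Cd3e* to 12.1% for *Cd28*. The 8 macrophage genes summed to 22.1 to 34.5 CPM. *Itgam* and *Cd14* were at 0, but *Cd68* was found in 9.11% and *Adgre1* in 38.1% of cells. Scores over 43 genes of S and 54 of G2/M, which hold none of the 9 genes, put each cell in a phase, and 248 cells were called G1, 241 S and 148 G2/M. S and G2/M cells are called cycling cells here. The largest score of 35 cells lay within 0.05 of the limit between G1 and the other phases.

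Each gene of the network was found in a minority of the cells, from 5.81% for *Mxi1* to 36.3% for *Mga*. *Mga* (ENSMUSG00000033943) had a count in 231 cells, *Myc* (ENSMUSG00000022346) in 177, *Max* (ENSMUSG00000059436) in 168, *Mlx* (ENSMUSG00000017801) in 137, *Mnt* (ENSMUSG00000000282) in 123, *Mxd3* (ENSMUSG00000021485) in 97, *Mxd4* (ENSMUSG00000037235) in 80, *Tfap4* (ENSMUSG00000005718) in 63 and *Mxi1* (ENSMUSG00000025025) in 37. *Myc* was thus found in 27.8% of cells (95% exact binomial interval 24.3% to 31.4%) and its obligate partner *Max* in 26.4% (22.99% to 29.98%). A cell with a count usually had many. The median over cells with a count was 358 counts for *Myc*, 264 for *Mlx*, 206.5 for *Max* and 164 for *Mxd3*. It was 110 for *Mga*, 98.0 for *Mxd4* and 32 for *Mnt*. *Mxi1* and *Tfap4* differed from that pattern, with medians of 1.0 and 7.0 counts, and 25 of the 37 cells with *Mxi1* held a single count. Of the 231 cells with *Mga*, 55 held a single count. With at least 10 counts required, *Mga* was found in 21.5% of cells, below *Myc* at 25.4% and *Max* at 23.5%. Cells held a median of 2 of the 9 genes with a count, and 98 cells (15.4%) held none. In full-length libraries of single cells a gene that is expressed can have no count, so that a count of 0 is not read as absence of the transcript.

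Of the other genes of the network, *Mlxip*, the MLX partner, had a count in 36.3% of cells, *Mlxipl* in 11.9% and *Mxd1* in 3.30%. *Mycn* had a count in 1 cell. *Mycl* had none in 637 cells, which allows a share of cells with a count of up to 0.471%. The B cell gene *Ms4a1* was at 0 in every cell too, so that a gene at 0 throughout is not read as unexpressed. *Myc* was the only MYC gene with a count in more than 1 cell.

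Levels were compared between genes as CPM of each host's summed counts per kilobase of exon. *Myc* was at 51.2 ± 23.3 (SD, n = 8 hosts), *Mlx* at 33.1 ± 12.01, *Max* at 23.6 ± 6.07 and *Mxd3* at 14.4 ± 4.02 CPM per kilobase. *Mga* was at 6.47 ± 1.93, *Mnt* at 5.84 ± 3.36, *Mxd4* at 3.26 ± 2.22, *Tfap4* at 2.84 ± 2.696 and *Mxi1* at 0.640 ± 0.958 CPM per kilobase. This order was taken from the same means that were then compared. The p-values were not adjusted over the 8 pairs of neighbours and are no independent test of the order. *Max* was above *Mxd3* in 7 of 8 hosts (exact two-sided sign-flip permutation test over hosts, p = 0.016). *Mxd3* was above *Mga* in 8 of 8 (p = 0.0078 in the same test, the smallest that 8 hosts allow) and *Mnt* above *Mxd4* in 7 of 8 (p = 0.039). These last 2 orders rest on the exon lengths, which join all annotated exons of a gene. Before division by length the means were 34.0 CPM for *Mxd3* and 99.2 CPM for *Mga* (2.37 and 15.3 kilobases). They were 27.0 CPM for *Mnt* and 27.7 CPM for *Mxd4* (4.63 and 8.48 kilobases). The other 5 pairs of neighbours did not differ beyond the spread between hosts, among them *Myc* and *Mlx*, where *Myc* was the higher in 6 of 8 hosts (p = 0.070). Kits of this kind do not mark the strand, so that reads in stretches shared with another gene may be assigned to the wrong one. Such stretches made up 5.29% of the *Max* gene body (*Gm47218*), 2.26% of *Mxd3* (*Prelid1*), 7.23% of *Mxd4* (*Gm42846*), 7.81% of *Mlx* (*Psmc3ip*) and 8.19% of *Mxi1* (other genes). These are shares of length, and the share of counts concerned was not measured. Reads in introns were counted too, which can raise genes with long introns such as *Mga* and *Mxi1* on this scale.

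The share of cells with *Myc* varied widely among hosts that had received the same treatment. Among the acalabrutinib hosts it was 11.1% in A7, 14.6% in A8, 30.8% in A10, 43.9% in A11 and 32.1% in A12. Among the vehicle hosts it was 19.7% in V5, 10.9% in V7 and 36.2% in V9. A11 and V9 were the highest of their groups and A7 and V7 the lowest, and the groups overlapped. The summed level of *Myc* followed a similar order, from 43.1 CPM in A7 to 230.4 CPM in A11 and from 80.4 CPM in V7 to 196 CPM in V9. In the 5 hosts with more than 1 plate, the share ran between plates from 10.9% to 21.4% in A8, from 15.8% to 24.2% in V5, from 31.4% to 33.3% in A12, from 31.8% to 40.7% in V9 and from 35.6% to 52.7% in A11. Hosts also differed in the share of cycling cells, from 42.7% in A8 to 69.2% in V9. Their median depth ran from 599290 counts in V5 to 946463 in A12. The part of either in the spread of *Myc* was not tested.

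**Figure D1:**
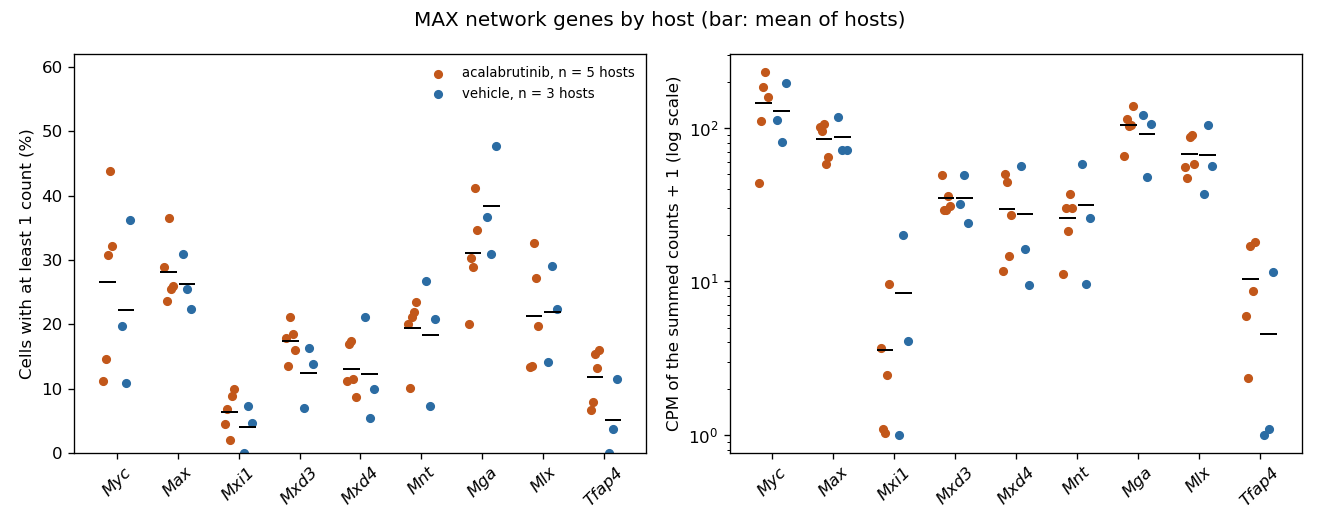
Share of cells with at least 1 count (left, percent) and CPM of the summed counts plus 1 (right, log scale) of each gene in every host; orange points are the 5 acalabrutinib hosts, blue points the 3 vehicle hosts, and bars the mean of each group. The groups overlap for all 9 genes, and *Myc* runs from 10.9% to 43.9% of a host's cells.

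Whether BTK inhibition in the host moved these genes was asked by comparing the 5 acalabrutinib with the 3 vehicle hosts, with inhibitor-insensitive and wild-type cells together. A difference in the wild-type cells alone would be diluted in this comparison and was not tested. *Myc* was found in 26.5% ± 13.5 (SD, n = 5 hosts) of the cells of acalabrutinib hosts and 22.3% ± 12.8 (n = 3 hosts) of those of vehicle hosts, a difference of 4.23 percentage points that lay within the spread between hosts (two-sided exact permutation of hosts in 56 splits, p = 0.71, where 0.018 is the smallest possible). The level of *Myc* was 145 ± 71.6 against 129 ± 59.7 CPM, a log2 difference of 0.15 ± 0.44 (SE). None of the 9 genes passed the edgeR quasi-likelihood test with Benjamini-Hochberg adjustment, and neither did any of the 18016 genes tested (0.0% called in either direction, 616 with an unadjusted p under 0.05, and 105 called by DESeq2). The log2 differences were -0.06 ± 0.32 for *Max*, 0.05 ± 0.74 for *Mxd4* and 0.01 ± 0.37 for *Mlx*. *Mxi1* stood at -1.56 ± 2.01, but at 0.79 without V7 and -2.77 without A12, and *Tfap4* at 1.45 ± 1.84. *Tfap4* was found in 6.67% to 16.05% of the cells of the acalabrutinib hosts, and in 0.0%, 3.64% and 11.5% of the cells of V5, V7 and V9 (difference 6.77 percentage points, exact permutation test, p = 0.125). Its level was 0.0, 0.0945 and 10.6 CPM in V5, V7 and V9, and without V9 its log2 difference was 7.48. The treatments were also compared in how each gene differed between cell classes within hosts (exact permutation tests). At an unadjusted p under 0.05, 0 of 9 genes differed in the share in cycling minus G1 cells (beside 3.24% of all genes), 0 of 9 in G2/M minus S cells (2.58%), and 1 of 8, *Mnt*, in the share in cells with minus without *Myc* (2.69%).

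Cycling and G1 cells were compared within hosts to see how the network differed by phase. *Mxd3*, the MXD gene known to be expressed in S phase, was found mostly in cycling cells. It was found in 6 of 248 G1 cells (2.42%, 95% exact binomial interval 0.893% to 5.19%), in 45 of 241 S cells (18.7%, 13.96% to 24.2%) and in 46 of 148 G2/M cells (31.1%, 23.7% to 39.2%). Per host, its share in G1 cells was 0.0% in A10, V5, V7 and V9, and 2.703% in A11, 3.45% in A12, 4.35% in A7 and 5.88% in A8. Its share in cycling cells was 10.6% in V5, 20% in V9, 30% in V7, 23.1% in A12, 23.7% in A8, 26.0% in A11, 31.8% in A7 and 33.3% in A10. The lowest cycling share, in V5, lay above the highest G1 share, in A8. *Mxd3* was 1 of the 9 genes with a higher share at an exact p under 0.05, beside 30.2% of 13833 genes. The mean share was 24.8% ± 7.35 against 2.05% ± 2.37 (SD, n = 8 hosts), a difference of 22.8 percentage points that was positive in 8 of 8 hosts (exact sign-flip permutation test, p = 0.0078, the smallest possible; adjusted over 13833 genes, 0.051). After each cell was thinned to 459128 counts, which left out 64 shallower cells, the shares were 24.2% and 1.51%, again in 8 of 8 hosts. The difference had the same sign on 13 of the 14 plates with at least 5 cells of each kind.

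The level of *Mxd3* in summed counts was 2.88 ± 6.91 CPM in G1 cells, 36.4 ± 23.8 CPM in S cells and 71.5 ± 35.97 CPM in G2/M cells (SD, n = 8 hosts). It was higher in cycling than in G1 cells by the edgeR quasi-likelihood test with hosts as a block (each host its own baseline; log2 difference 7.43 ± 1.82, adjusted p = 0.031), and the mean over S and G2/M sums, 53.9 CPM, was 18.7 times that of G1. In summed counts, fewer cells with a transcript and less RNA per cell cannot be told apart. The fitted value rests in part on the 4 hosts whose G1 cells held no *Mxd3* and is not a bound on the fold. The G1 mean behind the ratio of 18.7 rests largely on A7, at 19.8 CPM, beside 2.51 CPM in A11, the next highest host. *Mxd3* was the 1 gene of the 9 called higher, beside 1.89% of all 18006 genes tested, and none was called lower, beside 0.889%. Leaving out A8, A10, A12, V5, V7 or V9 moved the adjusted p to between 0.080 and 0.099, with log2 differences of 6.81 to 7.88, and without the block the log2 difference was 4.07 (adjusted p = 0.079). It was 8.68 without A7 (edgeR adjusted p = 0.0017) and 8.56 without A11 (edgeR adjusted p = 0.042). The difference in *Mxd3* between G2/M and S cells was 0.70 ± 1.26 on the log2 scale and was not called (adjusted p = 0.97). Its share was 34.0% ± 14.5 in G2/M and 17.5% ± 10.2 in S cells and was higher in G2/M in all hosts but A12 (exact sign-flip permutation test, p = 0.047; 6.41% of 13833 genes had such a p and were higher).

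*Mxd4*, an MXD gene linked to resting and differentiated cells, went the other way, but did not pass the test over all genes. It was found in 45 of 248 G1 cells (18.1%, 13.6% to 23.5%), in 24 of 241 S cells (9.96%, 6.49% to 14.5%) and in 11 of 148 G2/M cells (7.43%, 3.77% to 12.9%). The share in G1 cells was 26.3% in A10, 8.11% in A11, 20.7% in A12, 17.4% in A7, 25.5% in A8, 25% in V5, 8.00% in V7 and 15% in V9. The share in cycling cells was 12.1% in A10, 13.0% in A11, 1.92% in A12, 4.55% in A7, 5.26% in A8, 19.1% in V5, 3.33% in V7 and 7.78% in V9. A11 was the only host with the higher share in cycling cells, and the ranges overlapped. The mean difference was -9.86 ± 8.30 percentage points (SD, n = 8 hosts; exact sign-flip permutation test, p = 0.023; adjusted over all genes, 0.096), and *Mxd4* was 1 of 201 genes (1.45%) with a lower share at an unadjusted p under 0.05. On the level it stood at 51.5 ± 36.9 CPM in G1 cells, 18.9 ± 18.9 CPM in S cells and 6.004 ± 6.18 CPM in G2/M cells. The log2 difference was -2.86 ± 1.25 (edgeR, adjusted p = 0.34; DESeq2 gave -2.88, adjusted p = 0.0315). The share was lower in cycling cells on 12 of 14 plates. In thinned cells *Mxd4* was found in 7.87% of cycling and 17.4% of G1 cells, lower in 6 of 8 hosts and higher in 2. The exact sign-flip permutation test gave p = 0.047, and 0.18 after adjustment over all genes. *Mxd3* and *Mxd4* were found together in 10 cells, 10.3% of the cells with *Mxd3* and 12.5% of those with *Mxd4*. Over all cells *Mxd4* was found in 12.6% and *Mxd3* in 15.2%, so that the overlap lay near these shares and is not read as exclusion.

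**Figure D2:**
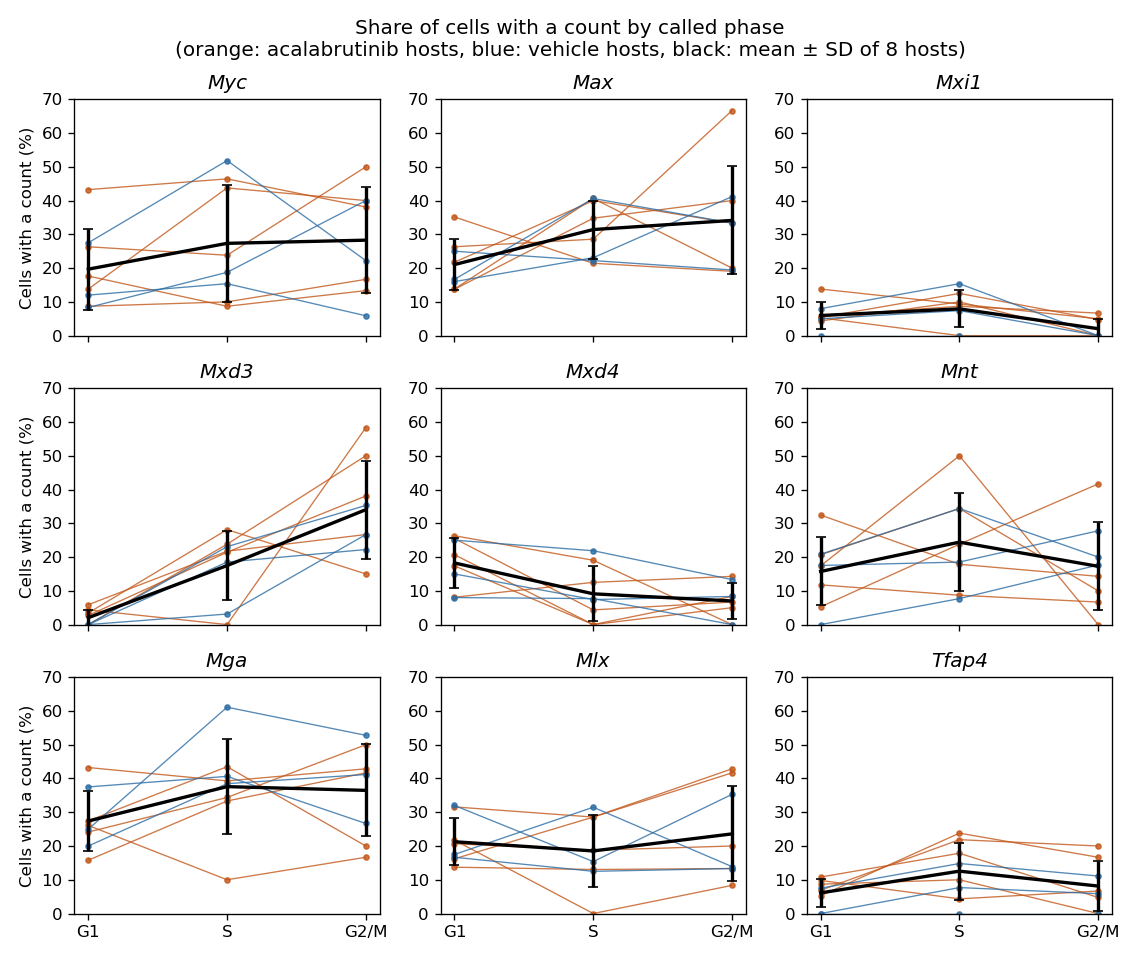
Share of cells with a count (percent) in cells called G1, S and G2/M for each of the 9 genes; thin lines join the phases of 1 host (orange acalabrutinib, blue vehicle), and the black line is the mean ± SD of 8 hosts. *Mxd3* climbs from a mean of 2.05% in G1 to 34.0% in G2/M cells, *Mxd4* descends from 18.2% to 6.99%, and the hosts' lines for *Myc* cross.

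For *Myc* itself, share and level went in opposite directions and neither passed its test. *Myc* had a count in 52 of 248 G1 cells (21.0%, 16.1% to 26.6%), 84 of 241 S cells (34.9%, 28.9% to 41.2%) and 41 of 148 G2/M cells (27.7%, 20.7% to 35.7%). Per host the share in cycling cells exceeded that in G1 cells in 6 of 8 hosts, by 7.75 ± 11.4 percentage points (SD; exact sign-flip permutation test, p = 0.11), where the median gene differed by 3.38 points. A8 and V7 were the hosts with the lower share in cycling cells. Without A8 the difference was 9.87 points (exact sign-flip permutation test, p = 0.047). With any other host left out it ran from 4.78 to 9.14 points (p = 0.094 to 0.22 in the same exact permutation test). The p without A8 comes from leaving out a host that went the other way, so that no conclusion is drawn from it. The summed level, by contrast, was 155 ± 94.2 CPM in G1 cells and 124 ± 81.8 CPM in cycling cells, a log2 difference of -0.89 ± 0.50 (edgeR, adjusted p = 0.51). That difference was -0.46 without A8, -0.35 in thinned cells, -0.45 with phases called on thinned counts and -0.35 without the block. Among cells with a count, the median was 669 CPM in G1 cells, 342 CPM in S cells and 368 CPM in G2/M cells. No order of the phases for *Myc* is read from these values. G1 cells were also the shallower ones, with a median of 687083 counts against 861810 in S and 872929 in G2/M cells.

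None of the other 6 genes was called between cycling and G1 cells. *Max* was found in 32.7% ± 7.87 of cycling and 21.0% ± 7.50 of G1 cells, higher in 6 of 8 hosts (exact sign-flip permutation test, p = 0.055), with a log2 difference in level of 0.18 ± 0.29. With 1 host left out the difference in share of *Max* ran from 10.05 to 15.4 percentage points. A11 and V9 were the hosts with the lower share in cycling cells. Without A11 the difference was 15.4 points and without V9 13.9 (p = 0.031 in each exact permutation test). Each of these p-values comes from leaving out a host that went the other way, so that no conclusion is drawn from them. With all hosts, 30.2% of 13833 genes had an exact p under 0.05 and a higher share in cycling cells. *Mga* was found in 37.3% ± 12.1 against 27.4% ± 8.95 (p = 0.10 in the same exact permutation test) and *Mnt* in 21.0% ± 7.85 against 15.7% ± 10.1 (p = 0.27). With 1 host left out the difference in *Mnt* ran from 2.46 to 8.26 points. The highest was without A11, a host with the lower share in cycling cells (p = 0.031 in the exact permutation test). No conclusion is drawn from that p either. *Mlx* was found in 20.8% ± 10.2 against 21.3% ± 6.97 and *Tfap4* in 10.8% ± 7.91 against 6.12% ± 4.15. *Mxi1* was found in 7.88% of S cells, 6.05% of G1 cells and 2.03% of G2/M cells. In the G2/M against S comparison it was lower in G2/M cells in 6 of 8 hosts and at 0 in both phases in A10 and V5 (exact sign-flip permutation test, p = 0.031; 3.79% of all genes had such a p and were lower), with levels near a single count in most cells. Of the 18006 genes tested between G2/M and S cells, 0.0722% were called higher and 0.0444% lower, and none of the 9 genes was among them.

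To set MYC against its antagonists, the levels of *Mxi1*, *Mxd3*, *Mxd4* and *Mnt* per kilobase of exon were summed in each host and phase. In G1 cells *Myc* was at 57.0 ± 34.7 CPM per kilobase and the 4 antagonists together at 13.97 ± 5.71 (SD, n = 8 hosts), with *Myc* above the sum in 8 of 8 hosts. In S cells the values were 41.9 ± 32.6 and 26.5 ± 14.3, and in G2/M cells 49.0 ± 40.9 and 33.8 ± 14.5, with *Myc* above the sum in 5 of 8 hosts in each. In G2/M cells *Mxd3* stood at 30.2 ± 15.2 CPM per kilobase against 1.22 ± 2.92 in G1 cells, while *Mxd4* stood at 0.708 ± 0.729 against 6.07 ± 4.34. *Mnt* was at 6.21 ± 4.99 in G1, 7.30 ± 4.58 in S and 2.90 ± 2.82 CPM per kilobase in G2/M cells. These levels are sums over cells and depend on the exon lengths. Counted by cell, 73 of 248 G1 cells had at least 1 of the 4 antagonists without *Myc*. *Myc* without any of them was found in 31 G1 cells, and both in 21. In S cells these counts were 79, 47 and 37 of 241, and in G2/M cells 51, 19 and 22 of 148. Such counts set 4 genes against 1.

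**Figure D3:**
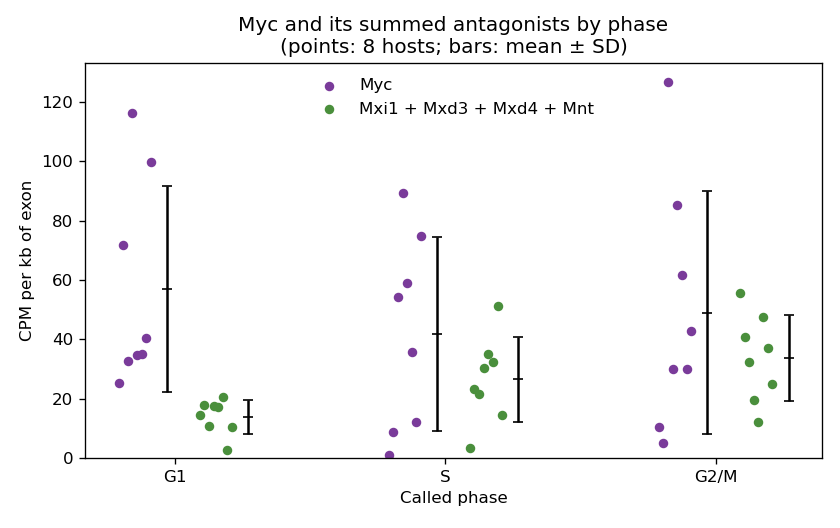
Level of *Myc* (purple) and of the sum of *Mxi1*, *Mxd3*, *Mxd4* and *Mnt* (green) in CPM per kilobase of exon in cells called G1, S and G2/M; points are the 8 hosts, and bars the mean ± SD. In G1 cells every host has *Myc* above the sum (means 57.0 and 13.97), and in S and G2/M cells the point clouds overlap. The levels are summed over cells, and more G1 cells had an antagonist without *Myc* (73) than *Myc* without an antagonist (31).

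Co-detection within single cells was then compared. Of the 177 cells with *Myc*, 56 (31.6%) also had *Max* and 45 (25.4%) had at least 1 of *Mxi1*, *Mxd3* and *Mxd4*. Of the 460 cells without *Myc*, 147 (31.96%) had an MXD gene. Only 10 of the cells with *Myc* (5.65%) had *Mxd4*, against 70 (15.2%) of the cells without. *Mnt* was found in 46 (26.0%) of the cells with *Myc* and 77 (16.7%) of those without. Of the 63 cells with *Tfap4*, 34 (54.0%) had *Myc*, which made up 27.8% of all cells. The pooled counts weigh hosts unequally, since A11 and V9 gave 50 and 47 of the cells with *Myc*. Cells with *Myc* were also deeper (median 890495 against 751578 counts) and more often cycling (70.6% against 57.4%).

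The comparison was therefore made within hosts and at 1 depth, in the 7 hosts with at least 5 thinned cells of each kind (all but A7). Phase was not matched in it. No gene passed after adjustment over the 13832 genes with a count in at least 5% of cells (exact sign-flip permutation tests, 0 with an adjusted p under 0.05 and 1780 with an unadjusted one). The smallest p that 7 hosts allow is 0.016, and 10.3% of the genes had an unadjusted p under 0.05 and a higher share in the cells with *Myc*, 2.53% a lower one. The median gene was found in 1.63 percentage points more of the cells with *Myc*. Among the 8 members other than *Myc*, only *Mlx* had such a p (exact sign-flip permutation test, p = 0.031). *Mlx* was found in 27.6% ± 8.95 of the cells with *Myc* and 20.7% ± 6.44 of those without (SD, n = 7 hosts), higher in 6 of 7. Unthinned, its shares were 26.7% and 19.3%, higher in 8 of 8 hosts. With at least 10 counts of both genes the p was 0.20 (exact permutation test), and in the 3 hosts with enough G1 cells the G1 shares were 16.4% and 16.4%. The mean level of *Mlx* was 74.1 CPM with and 62.3 CPM without *Myc*, with a fitted log2 difference of -0.09 ± 0.76 that was not called.

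*Mxd4* was found in 0.0% of the thinned cells with *Myc* and 21.9% of those without in A10, 4.17% and 16.9% in A11, 4.17% and 11.1% in A12, 10% and 20.5% in V5, 0.0% and 6.52% in V7, and 2.17% and 12.2% in V9. A8 was the only host that went the other way, with 30.8% of 13 cells with *Myc* and 17.2% of 64 cells without. The mean difference was -7.86 ± 10.8 percentage points (SD, n = 7 hosts; exact sign-flip permutation test, p = 0.125). Without A8 it was -11.4 points. The 6 hosts left then all go one way, which fixes the permutation p at its smallest (0.031), so that no conclusion is drawn from it. Without thinning the mean difference was -8.54 ± 10.8 points, lower in 7 of 8 hosts (p = 0.070 in the same exact permutation test). Within S and G2/M cells alone *Mxd4* was found in 4.71% ± 5.17 of the cells with *Myc* and 14.1% ± 8.80 of those without (n = 5 hosts, lower in 4; exact permutation p = 0.125, where 0.0625 is the smallest possible). In G1 cells the 3 hosts with enough cells had means of 17.8% and 18.1%.

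*Tfap4* was found in 14.96% ± 11.5 of the cells with *Myc* and 6.49% ± 4.73 of those without, higher in 4 of 7 hosts, lower in A11 and V7 and with no count in V5 (exact sign-flip permutation test, p = 0.125). *Mnt* was at 23.6% ± 12.7 and 16.3% ± 7.58 (p = 0.125) and *Max* at 30.8% ± 14.3 and 24.996% ± 6.91, higher in 6 of 7 hosts (p = 0.34 in the same exact permutation test). V7, with 6 cells with *Myc*, none of which had *Max*, was the exception for *Max*. Without V7 the difference in *Max* was 11.5 percentage points. The hosts left then all go one way, which fixes the exact permutation p at 0.031, so that no conclusion is drawn from it. Without thinning, the differences were smaller, at 3.41 points for *Mnt* (p = 0.47) and 2.65 points for *Max* (p = 0.67, exact permutation tests over 8 hosts). *Mxd3* was at 13.6% and 14.5%, and the difference was -4.92 points when at least 10 counts were required. *Mga* was at 32.2% and 31.9% over all phases. In G1 cells it was at 45.5% and 22.9%, higher in 3 of 3 hosts (exact permutation p = 0.25, the smallest possible), and in S and G2/M cells the difference was -2.50 points over 5 hosts, and the difference between the phases was not tested. The macrophage list summed to 0.629 to 32.6 CPM per host in the cells with *Myc* and 24.6 to 49.9 CPM in those without, carried by *Adgre1* and *Cd68*, and its part in these differences was not tested.

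**Figure D4:**
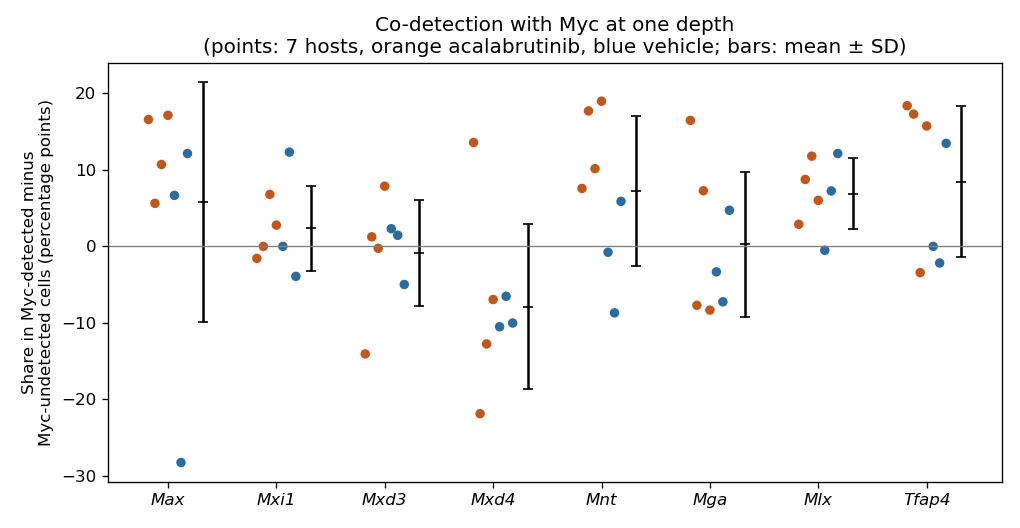
Share of cells with each member gene other than *Myc* among cells with *Myc* minus that among cells without, in percentage points. Every cell was thinned to 1 depth. Points are the 7 hosts (orange acalabrutinib, blue vehicle), and bars the mean ± SD. *Mxd4* lies below 0 in 6 of 7 hosts, and *Mlx* and *Max* above 0 in 6 of 7 each, with V7 far below for *Max*.

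Levels of the members other than *Myc* in counts summed over the cells with and without *Myc* gave no call (edgeR quasi-likelihood test with hosts as a block, 0.0% of 21031 genes called, 2010 with an unadjusted p under 0.05, and 1578 called by DESeq2). The sums of cells with *Myc* held as few as 5 and 6 cells in A7 and V7, and the median log2 difference over all genes was -0.72, so that values are read against that shift. *Max* stood at -0.05 ± 0.87, *Tfap4* at 0.72 ± 1.56, *Mnt* at -1.50 ± 1.23 and *Mxd3* at -0.80 ± 1.22. With phase and host as blocks, a fit added after the data were seen, *Mnt* was at -0.02, *Mxd3* at -0.26, *Max* at 0.25 and *Tfap4* at 1.09. Without A8, *Tfap4* was at 0.0014 and *Mxd3* at -0.26, and without V7 *Max* was at 0.38. *Mxd4* had the largest difference, -4.45 ± 1.66 (unadjusted p = 0.022, adjusted p = 0.50; DESeq2 -4.45, adjusted p = 0.000544). Its mean level was 22.4 CPM with and 32.7 CPM without *Myc*, and without the block the log2 difference was -0.45.

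Of 25 genes that MYC is known to activate, 19 had a higher share in the cells with *Myc* at an unadjusted exact p under 0.05, beside 10.3% of all genes, none had a lower one, beside 2.53%, and the median difference was 18.7 percentage points beside 1.63 over all genes. *Nop56*, which encodes a core protein of small nucleolar ribonucleoproteins, was found in 63.9% ± 11.8 of the cells with *Myc* and 33.4% ± 8.60 of those without (SD, n = 7 hosts), higher in 7 of 7 hosts. *Nolc1*, a nucleolar phosphoprotein gene, was at 57.3% and 27.5%, *Mrto4*, a ribosome assembly gene, at 42.4% and 14.1%, and *Shmt2*, of mitochondrial serine metabolism, at 57.9% and 31.7%, each in 7 of 7 hosts (exact sign-flip permutation tests, p = 0.016; adjusted over all genes, 0.27). Of 13 tested cofactors and turnover factors of MYC, 4 had such a p and a higher share: *Pim1*, a kinase gene, at 87.6% and 67.0%, *Ruvbl2* at 42.7% and 28.9%, *Kat2a*, a histone acetyltransferase gene, at 21.5% and 12.004%, and *Huwe1*, a ubiquitin ligase gene, at 80.6% and 70.3%. *Fbxw7*, the ubiquitin ligase gene best known for MYC turnover, was listed at 0 in all cells. Of 8 tested SIN3 corepressor genes 2 had one (*Rbbp4* and *Rbbp7*), and of 7 tested genes of the MGA complex 1 (*Yaf2*), counts that are read against the 10.3% of all genes and, for the MGA complex, lie near it.

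The same lists were then read in the levels of cycling against G1 cells, where 1.89% of all genes were called higher and 0.889% lower. Of the 10 SIN3 corepressor genes, 2 were called higher in cycling cells, the histone chaperones *Rbbp7* (log2 difference 1.17 ± 0.15, edgeR adjusted p = 0.00012) and *Rbbp4* (0.83 ± 0.18, adjusted p = 0.014). Of 9 genes of the MGA complex, *Cbx3*, a heterochromatin protein gene (1.30 ± 0.27, adjusted p = 0.0086), and *Tfdp1*, the E2F partner gene (1.17 ± 0.26, adjusted p = 0.018), were called higher. Of 25 MYC-activated genes, *Cdk4* alone was called (0.62 ± 0.15, edgeR adjusted p = 0.027), and the median of the list was 0.23 beside -0.13 over all genes. The B cell list went lower, with 6 of 7 tested genes called, among them *Cd74* (-0.44 ± 0.06). None of the 13 tested cofactors and turnover factors and none of *Mxd1*, *Mlxip* and *Mlxipl* was called. The S-phase gene *Pcna* and the G2/M gene *Top2a* were at log2 differences of 2.38 ± 0.27 and 4.39 ± 0.39, on genes that were used to call the phases.

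The genes whose levels followed each member most closely were found by the mean over hosts of the Spearman correlation across the cells of a host, among 5704 genes with a count in at least 25% of cells. They describe these cells, which share plates and differ in depth. For *Myc* the 5 closest were *Nfkbia* (mean rho 0.41, 8 hosts), *Ly75* (0.30), *Birc3* (0.30), *Nfkb2* (0.28) and *Pim1* (0.28). *Nfkbia*, *Birc3* and *Nfkb2* are targets of NF-kB, and *Ly75* encodes DEC205. For *Mxd3* the 3 closest were *Neil3*, a DNA repair gene (0.42), and the mitotic genes *Kif11* (0.41) and *Birc5* (0.41). *Mga* was closest to *Ptcd3* (0.26), *Tfap4* to *Mrfap1* (0.21), *Emc6* (0.21) and *Ppan* (0.21), all over 7 hosts, and *Mnt* to *Zfp609* (0.20). For *Max*, *Mlx*, *Mxd4* and *Mxi1* no gene reached 0.2.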

How the data were processed

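Single LZ GC B cells were sorted into plates and sequenced with SMART-seq2, a full-length protocol without molecular identifiers. The deposited matrix held whole-number counts of 637 cells and 56691 genes, which the authors made with STARsolo 2.7.10a from reads in exons and introns, with duplicates at the same position removed and no normalization. The alignment was to GRCm39 (annotation release 107), and the submitters' processing notes name GRCm38 as well. The 16 samples (2 genotypes in 8 hosts) were taken as 8 hosts, because cell names did not give the genotype.

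Counts were summed per host, or per host and cell class with at least 5 cells, and tested with the edgeR 4.0.16 quasi-likelihood test (TMM scaling, filterByExpr, hosts as a block within hosts, Benjamini-Hochberg adjustment over all genes, threshold 0.05). The host number pairs the samples because the cells compared came from the same animal. Phases were called with Seurat 5.3.0. Shares of cells with at least 1 count were compared over hosts by exact sign-flip or permutation tests, for genes found in at least 5% of cells. Cells were thinned to 459128 counts where depth was matched, which left out 64 of 637 cells. DESeq2 1.42.0, another scaling, no filter, thinned cells, other detection limits, no block and leaving out each host were tried. The edgeR fits were also run on simulated counts without host effects, in which only well-counted genes were changed. Those runs do not cover genes near 0 in some sums, such as *Mxd3* in G1 cells. Exon lengths and overlaps came from a GRCm38 annotation. Genes named beside the 9 were at most 4 per list with the smallest p past the test, and the 3 (5 for *Myc*) genes most correlated within hosts with log2(CPM + 1), where the mean rho was at least 0.2. Other genes named were chosen after their values were seen. The members and lists were chosen with earlier results of these data known. No doublet caller was run on these sorted single cells. Some genes of the lists are not reported here by name.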

Additional observations from a re-analysis of the deposited data

Results flagged for a closer look

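*Mnt* was found in 10.1% of the cells of host A8, set apart from the other acalabrutinib hosts, whose shares ran from 20% to 23.5%. Of 18 such checks (level and share of each of the 9 genes) in the same 5 acalabrutinib hosts, 1 stood apart in this way. Chance sets apart about 1 in 20 of independent checks, and these were not independent.

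The difference in share of cells with *Mnt* between cells with and without *Myc* was 13.6 ± 5.60 percentage points in 4 acalabrutinib hosts and -1.19 ± 7.30 in 3 vehicle hosts (SD, thinned cells). The treatments differed by 14.8 points (exact two-sided permutation test, p = 0.029, the smallest possible), beside 2.69% of 13833 genes with an unadjusted p under 0.05, and the p adjusted over all genes was 0.99. It was 1 of 26 such comparisons.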

How the results depend on the processing

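Over 736 alternatives of 58 results, 71 changed sign, and only 1 of them in a value past its threshold: in G1 cells alone the co-detection difference of *Mlx* was -0.0016 percentage points. DESeq2 called 105 genes between treatments, 2188 between cycling and G1 cells, 1089 between G2/M and S cells and 1578 by *Myc* detection, where edgeR called 0, 500, 21 and 0. Without a filter on low counts 13 genes were called between G2/M and S cells, and leaving out 1 host gave 6 to 15. By *Myc* detection, thinned cells gave 1 call, cells with at least 10 *Myc* counts 1, and the fit with no replicate block 21. The difference in *Myc* share between cycling and G1 cells ran from 4.78 to 9.87 percentage points with 1 host left out, and that between treatments from -1.45 to 11.2. The number of genes with a co-detection p under 0.05 was 1780 with 7 hosts and 974 to 1297 with 1 fewer, where the smallest possible p is larger. For the other changes the cause was not tested. Co-detection counts within G1 or within S and G2/M cells are not given, since 3 and 5 hosts allow no p below 0.25 and 0.0625. A share of cells with a count depends on depth, which was lower in G1 cells and in cells without *Myc*.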

Other observations

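Other genes were found more or less often in the cells with *Myc* (thinned, phase not matched, 7 hosts, exact sign-flip permutation tests, unadjusted p under 0.05, none past the adjustment). Of 6 light zone genes, 5 had a higher share, beside 10.3% of all genes, and none a lower one, with a median difference of 19.9 percentage points beside 1.63 over all genes. *Nfkbia*, the inhibitor gene induced by NF-kB, was found in 78.9% ± 6.67 of the cells with *Myc* and 39.9% ± 13.0 of those without, higher in 7 of 7 hosts. *Cd40*, the receptor for T cell help, was at 60.4% and 31.8%, and *Slamf1*, a cell contact receptor gene, at 64.0% and 44.4%.

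Of the 8 germinal center genes, none had a higher share at an unadjusted p under 0.05, beside 10.3% of all genes. A lower share at such a p was found for 3, beside 2.53% of all genes. The difference was positive in 2 of the 8, and its median was -6.72 percentage points. *Bcl6*, the repressor that defines GC B cells, was found in 79.8% of the cells with *Myc* and 88.2% of those without, lower in 6 of 7 hosts, and *S1pr2*, which encodes a receptor that keeps cells in the GC, at 66.9% and 80.5%, also lower in 6 of 7. Of 4 tested plasma cell genes 1 had a higher share at such a p, beside the same 10.3% of all genes. This was *Irf4*, a factor gene that is also induced in activated B cells, at 21.9% ± 12.01 and 4.28% ± 3.46, higher in 6 of 7 hosts. Of 7 tested B cell genes, none had such a p in either direction.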
